A study of Mus musculus with 34 samples.

Results

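Gfap, Vim, Nes and Synm encode 4 intermediate filament proteins of astrocytes. They were taken by gene symbol from the deposited expression table, where they make up 4 of 20613 genes with values. Each symbol matched 1 row, and all 4 genes passed the filter on low values, at least 1 TPM in at least 3 libraries, which 14590 genes passed. TPM gives the share of a gene's transcripts among all transcripts, scaled to 1 fixed sum per library, after division by transcript length, so levels of different genes can be set side by side.

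The series sequenced polyA RNA of astrocytes that a magnetic method had separated from cortices of wild-type (WT) male mice, in 34 libraries over development and aging. There were 4 libraries each at postnatal day 7 (P7) and P14, 3 each at P21, P28 and P60, 5 each at 3 months (3m) and 6m, 3 at 12m and 4 at 18m. No group carried a transgene or a treatment, and the labels do not say whether a library held 1 animal or several. The p-values below therefore measure the spread between these libraries, which may be technical in part.

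Intermediate filaments are rope-like polymers that give a cell mechanical strength, and their make-up changes as cells mature. Immature astroglia and radial glia carry mostly vimentin and nestin, whereas mature astrocytes add glial fibrillary acidic protein. Nestin and synemin do not form filaments alone and copolymerise with partners such as vimentin. In injured brain, astrocytes raise GFAP, vimentin and nestin together, and this is widely used as a sign of reactivity.

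Gfap, the main filament protein of mature astrocytes (ENSMUSG00000020932), lies on chromosome 11 at 102887336 to 102900912 on the minus strand (GRCm38, the same assembly as mm10, GENCODE M21). Vim, which encodes vimentin, the filament of immature glia and of mesenchymal and endothelial cells (ENSMUSG00000026728), lies on chromosome 2 at 13573927 to 13582826 on the plus strand. Nes, which encodes nestin, the filament of neural progenitors that vessels also carry (ENSMUSG00000004891), lies on chromosome 3 at 87971078 to 87980451 on the plus strand. Synm, which encodes synemin, a linker that ties filaments to other structures of the cell (ENSMUSG00000030554), lies on chromosome 7 at 67730160 to 67759742 on the minus strand. The values are sums over all transcripts of a gene, so the annotated isoforms, 3 for Gfap, 6 for Vim, 3 for Nes and 5 for Synm, were not told apart. On the plus strand opposite Synm, exons of Gm45102 share 426 and exons of Ttc23 share 84 of the 7933 exon bases of Synm. Whether reads were counted by strand is not given in the sources used here, so reads from those bases could belong to either gene. No exon of another gene overlapped an exon of Gfap, Vim or Nes.

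The promoters of Gfap and Nes are shown because these 2 genes passed the test in 2 comparisons. Gfap and Nes were lower at P60 than at P7 and higher at 3m than at P60. Bases before the RefSeq start site (GRCm38.p6), each 5′ to 3′ on the strand of its gene, are at chr11:102897201-102897450 (minus strand) for Gfap and chr3:87970843-87971077 (plus strand) for Nes. The Gfap sequence ends at the base before that start, and the Nes sequence ends 15 bases short of it, where exon 1 begins in GENCODE. Capitals mark GC boxes (GGGCGG or its complement CCGCCC).
Gfap: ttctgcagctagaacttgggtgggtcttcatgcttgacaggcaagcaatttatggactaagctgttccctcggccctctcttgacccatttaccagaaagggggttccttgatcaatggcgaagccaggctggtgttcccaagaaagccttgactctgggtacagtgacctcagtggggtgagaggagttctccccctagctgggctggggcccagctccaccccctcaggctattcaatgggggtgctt
Nes: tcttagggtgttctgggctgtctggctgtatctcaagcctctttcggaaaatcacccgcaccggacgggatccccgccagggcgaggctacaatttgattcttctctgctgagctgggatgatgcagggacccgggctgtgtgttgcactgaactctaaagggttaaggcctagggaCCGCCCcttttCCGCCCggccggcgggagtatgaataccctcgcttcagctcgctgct

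All 4 genes had a RefSeq promoter, and 6 motifs were searched on both strands in the 250 bases before each start. The Nes promoter held 2 GC boxes, which begin 73 and 62 bases before the RefSeq start, and GGGCGG occurred in 32.7% of all 32851 promoters. The Vim promoter held a TATAAA 32 bases before the start and CCAAT at 196 and 94 bases before it, and the Synm promoter held CCAAT 78 bases before it. TATAAA occurred in 12.4% and CCAAT in 33.8% of all promoters. None of the 4 windows held the STAT palindrome TTCNNNGAA (7.02% of all promoters), the AP-1 site TGANTCA (6.75%) or the nuclear factor I palindrome (0.0365%), and the Gfap window held none of the 6 motifs. A match of letters is a description only. The RefSeq start of Gfap lies 3712 bases inside the start of the gene in GENCODE, which carries a longer transcript.

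Markers of the labelled cell type were abundant: 9 astrocyte genes (among them Aqp4, Slc1a2 and Aldh1l1) summed to 10089 to 25304 TPM in every library, and none was at 0. These astrocyte markers also moved with age. At P14 against P7, 4 of 9 were higher and 1 lower (median log2 fold change 0.72). At P60 against P7, 4 were higher and 2 lower (median 0.42). At 18m against 3m, 1 was higher and 4 lower (median -0.30). Their part in the results was not tested. Markers of other cells were present as well. Over the ages, the library sums ranged from 424 to 60541 TPM for 5 erythroid genes, from 227 to 2869 TPM for 8 endothelial genes and from 31.2 to 587 TPM for 8 neuronal genes. The erythroid sum averaged 43020 TPM at P21, where the mean of Synm was highest, and its part in the levels there was not tested. No erythroid gene was called in any of the 7 comparisons, but none of them includes P21. In bulk samples, fewer cells of a type and less RNA per cell cannot be told apart. The number of genes at 0 differed as well, in 3 ranges that did not touch. It was 1155 to 1704 for 3m, 6m and 12m replicate 3 (11 libraries), 2854 to 3523 for P21, P28 and P60 (9 libraries) and 4109 to 4819 for 18m, P7, P14 and the other 12m libraries (14 in all). P14 vs P7, 6m vs 3m and 18m vs P7 lie within 1 range. P60 vs P7, 3m vs P60, 18m vs 3m and 18m vs P60 cross ranges, and there age and range cannot be told apart.

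Gfap was the most abundant of the 4 at every age and Vim the second. Gfap supplied on average 66.0% ± 8.92 (SD, n = 4) of the summed TPM of the 4 genes at 18m and 80.3% ± 3.21 (SD, n = 4) at P14, the lowest and highest of the 9 ages. Vim supplied between 18.1% ± 2.62 (SD, n = 4) at P14 and 32.4% ± 8.52 (SD, n = 4) at 18m. Nes and Synm supplied the least, with mean shares from 0.751% at P7 to 1.46% at 12m for Nes and from 0.387% at P7 to 1.5% at P21 for Synm. Mean levels moved over the ages by 2.86-fold for Gfap, 2.46-fold for Vim, 2.81-fold for Nes and 1.90-fold for Synm.

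All 4 genes differed among the 9 ages (limma F test, adjusted p = 0.00473 for Gfap, 0.00227 for Vim, 0.00372 for Nes and 0.0230 for Synm), as did 63.6% of all genes tested. The test does not say which ages differ, and with neuronal and oligodendrocyte covariates Gfap missed it (adjusted p = 0.0615). In the order of mean TPM, each gene's neighbouring ages overlapped in all 8 pairs, so the order itself is loose. It ran P7, 3m, P14, 12m, 6m, P21, 18m, P28, P60 from high to low for Gfap, and P7, 18m, 3m, 12m, P14, P60, 6m, P28, P21 for Vim. For Nes it ran 12m, P7, P14, 3m, P28, 18m, P21, 6m, P60, and for Synm P21, 12m, 3m, P28, P14, P60, 6m, P7, 18m.

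**Figure D1:**
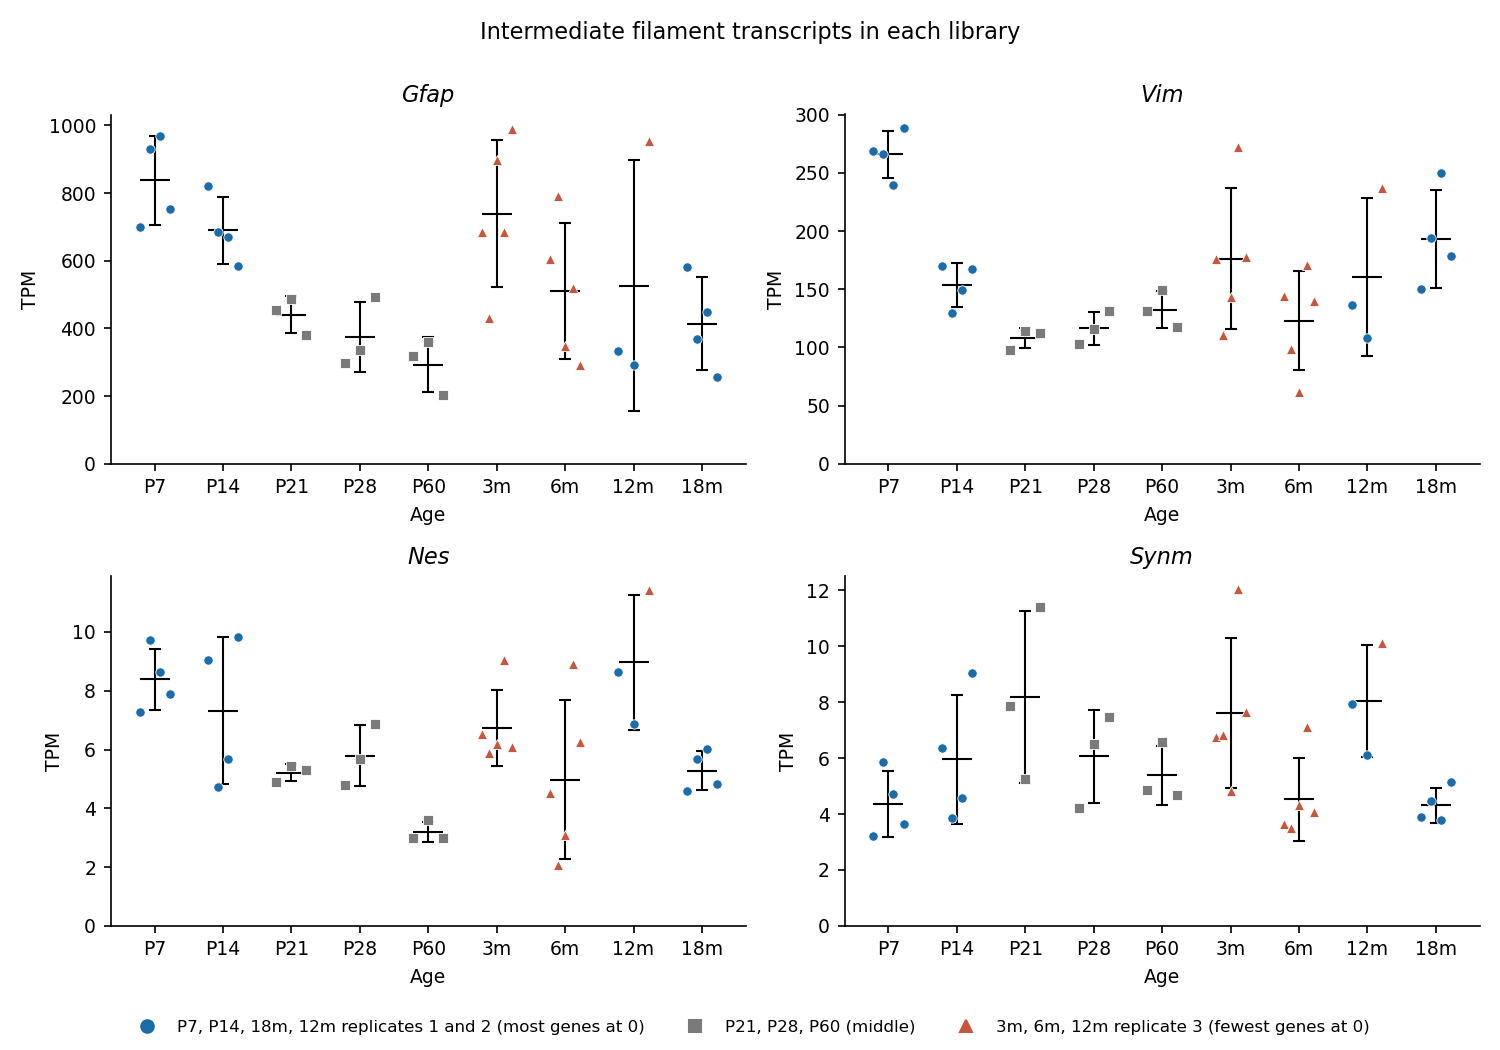
TPM of Gfap, Vim, Nes and Synm in each library by age, with mean and SD as a bar and the shape and colour giving the range of genes at 0. Gfap and Vim were highest on average at P7 (837 and 266 TPM), and 12m replicate 3, a triangle, had 954 TPM of Gfap against 333 and 292 TPM in the other 2 libraries of that age.

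P14 was compared with P7 to cover the first postnatal step. Vim fell, whereas Gfap, Nes and Synm did not pass the test. Vim had 170, 129, 149 and 168 TPM at P14, against 269, 266, 240 and 289 TPM at P7. The 2 ages did not overlap. Vim was 1.73-fold lower at P14, a log2 fold change of -0.79 ± 0.25 (SE; limma adjusted p = 0.0399). Gfap had 821, 684, 670 and 583 TPM at P14, against 700, 929, 969 and 752 TPM at P7, and these ranges overlapped. Its log2 fold change was -0.28 ± 0.32 SE (limma adjusted p = 0.591). On the same scale Nes was -0.22 (adjusted p = 0.559) and Synm 0.35 (adjusted p = 0.344). Of all genes tested, 11.8% were called in this step, 8.57% as lower and 3.28% as higher, and 34.5% did not overlap, beside 1 of 4 filament genes. The call of Vim is a narrow one: it was lost when any 1 of the 8 libraries was left out (limma adjusted p between 0.0530 and 0.108) and when libraries were rescaled by median of ratios (-0.66, adjusted p = 0.0533). With covariates for neuronal and oligodendrocyte markers it was -0.35 (adjusted p = 0.306). All 8 proliferation markers were lower at P14 (median log2 fold change -1.12), with sums of 61.9 to 78.7 TPM at P14 and 131 to 189 TPM at P7, and their part in the result was not tested. Leaving out 1 library also moved the count of called genes, 1728, to between 628 and 1268.

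The comparison of P60 with P7 covers postnatal maturation. Gfap, Vim and Nes fell, while Synm did not pass the test. Gfap had 317, 359 and 203 TPM at P60, against 700, 929, 969 and 752 TPM at P7. All 3 P60 libraries lay below all 4 P7 libraries, and Gfap was 2.86-fold lower, a log2 fold change of -1.54 ± 0.35 (SE; limma adjusted p = 0.00101). Vim had 131, 149 and 117 TPM at P60, against 269, 266, 240 and 289 TPM at P7. It was 2.0-fold lower without overlap, a log2 fold change of -1.0 ± 0.27 (SE; limma adjusted p = 0.00368).

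Nes had 2.97, 3.59 and 3.01 TPM at P60, against 7.29, 9.72, 8.64 and 7.89 TPM at P7. It was the filament gene with the smallest adjusted p in this comparison, 2.63-fold lower and without overlap (log2 fold change -1.16 ± 0.26 SE, limma adjusted p = 0.000769). Synm had 4.85, 6.59 and 4.69 TPM at P60, against 3.23, 5.87, 4.73 and 3.63 TPM at P7, and the ages overlapped. Its log2 fold change was 0.26, with a 95% interval from -0.28 to 0.80 (limma adjusted p = 0.408). The summed TPM of the 4 genes averaged 434 ± 97.3 (SD, n = 3) at P60 and 1116 ± 120 (SD, n = 4) at P7. The ratio of Nes to Synm averaged 0.599 ± 0.0490 (SD, n = 3) at P60 and 1.98 ± 0.284 (SD, n = 4) at P7.

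Of all genes tested, 52.8% were called between P60 and P7, 33.3% as lower and 19.5% as higher, and 60.4% did not overlap. The 3 lower calls among 4 filament genes stand beside that background. The median of all genes was -0.15 on the log2 scale, and 36.9% of calls were higher. Median-of-ratios rescaling set the median to 0.0066 and the higher share of calls to 56.9%, and Gfap (-1.36), Vim (-0.82) and Nes (-1.01) stayed called. Neuronal markers were higher at P60 in 7 of 8 genes, with library sums of 295 to 587 TPM at P60 and 31.2 to 54.2 TPM at P7. Oligodendrocyte markers were higher in 6 of 8 and lower in 1, with sums of 1337 to 2475 TPM at P60 and 253 to 399 TPM at P7, where Mobp was at 0 in every library. With the means of both lists as covariates, no filament gene was called: Gfap was -0.80 (limma adjusted p = 0.149), Vim -0.028 (adjusted p = 0.958) and Nes -0.28 (adjusted p = 0.505). The slopes of these covariates come from differences between libraries of the same age, and neither list's sums overlapped between P60 and P7. The fit therefore cannot tell age and these markers apart here. All 6 ependymal markers and 4 of 7 microglial markers were also higher at P60, and all 8 proliferation markers and 5 of 6 fibroblast markers were lower. The ependymal sums were 842 to 1928 TPM at P60 and 222 to 338 TPM at P7, and the part of these 4 lists was not tested. Endothelial markers were lower at P60 in 5 of 8 genes and higher in none, with a median log2 fold change of -1.17. With the number of genes at 0 as a covariate, Gfap was -2.45, Vim -1.53 and Nes -1.39, all called. Each age has its own mean in that fit, so its slope comes from differences between libraries of the same age. These differences were widest at 12m, with 4556, 4532 and 1615 genes at 0 in replicates 1, 2 and 3. With endothelial and mural covariates, Gfap, Vim and Nes were -1.93, -1.25 and -1.05 and remained called, and Synm was -0.030.

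The next step, 3m against P60, uses the same 3 P60 libraries, and 2 of the genes that fell by P60 were higher again. Gfap had 686, 432, 899, 685 and 991 TPM at 3m, against 317, 359 and 203 TPM at P60. Every 3m library lay above every P60 library, and Gfap rose 2.52-fold (log2 fold change 1.31 ± 0.33 SE, limma adjusted p = 0.0123). Nes had 6.52, 5.88, 6.17, 9.03 and 6.07 TPM at 3m, against 2.97, 3.59 and 3.01 TPM at P60. It rose 2.11-fold, again without overlap (log2 fold change 0.87 ± 0.25 SE, limma adjusted p = 0.0217). Vim (0.35, adjusted p = 0.419) and Synm (0.40, adjusted p = 0.332) did not pass, and their ages overlapped. These 2 calls of 4 stand beside 10.2% of all genes, 8.26% as higher and 1.93% as lower, and 24.2% without overlap.

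The 3m and P60 libraries lie in different ranges of genes at 0. With that number as a covariate neither call held, with Gfap at 0.45 (limma adjusted p = 0.556) and Nes at 0.65 (adjusted p = 0.288), and Vim stood at -0.15. The slope of that covariate comes from differences within ages, which were widest at 12m because of replicate 3. The fit therefore cannot tell age and range apart here. The call of Gfap was also lost without P60 replicate 3 (1.07, adjusted p = 0.0940). That of Nes was lost without P60 replicate 1 (0.84, adjusted p = 0.0826), 2 (0.94, adjusted p = 0.0515) or 3 (0.84, adjusted p = 0.0834) and without 3m replicate 4 (0.78, adjusted p = 0.0595). Without P60 replicate 1, 2 or 3 the genes called numbered 773, 717 and 675, against 1487 with all libraries. All 8 proliferation markers were higher at 3m, with sums of 122 to 194 TPM at 3m and 25.0 to 32.4 TPM at P60, and 3 of 6 fibroblast markers were (median 1.09). The part of these 2 lists in the results was not tested. Of 8 endothelial markers, 3 were higher at 3m and none lower (median 0.92), and with endothelial and mural covariates Gfap was 1.74 and Nes 0.74, both called. Rescaling moved the median of all genes from 0.12 to -0.026 and the higher share of calls from 81.0% to 48.9%, with Gfap (1.15) and Nes (0.73) still called.

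**Figure D2:**
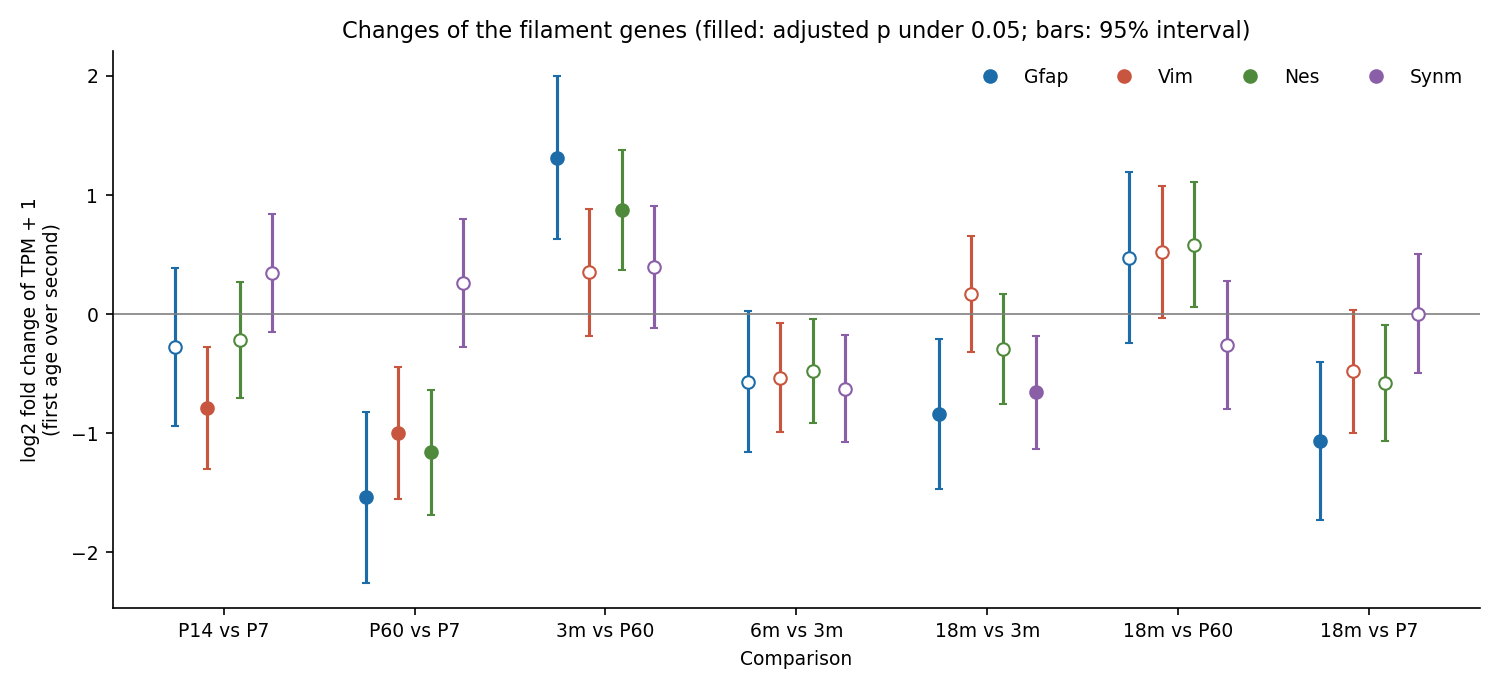
Log2 fold change of TPM + 1 with its 95% interval for the 4 genes in 7 comparisons, the first-named age over the second, with filled points where the limma adjusted p was under 0.05. Gfap, Vim and Nes lie below 0 for P60 vs P7 (-1.54, -1.0 and -1.16), and Gfap and Nes lie above 0 for 3m vs P60 (1.31 and 0.87).

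Between 6m and 3m no filament gene passed the test. Gfap had 604, 790, 347, 519 and 291 TPM at 6m, against 686, 432, 899, 685 and 991 TPM at 3m. The log2 fold changes were -0.57 for Gfap (limma adjusted p = 0.220), -0.53 for Vim (adjusted p = 0.130), -0.48 for Nes (adjusted p = 0.152) and -0.63 for Synm (adjusted p = 0.0654). All 4 genes overlapped between the ages, and 9.32% of all genes were called, 7.25% as lower, and 4.18% did not overlap. Synm was called without 3m replicate 3 (-0.75, limma adjusted p = 0.0319) or without 6m replicate 4 (-0.77, adjusted p = 0.0236). Nes was called without 6m replicate 4 (-0.69, adjusted p = 0.0223). With neuronal and oligodendrocyte covariates Vim (-0.99, adjusted p = 0.00366), Nes (-0.96, adjusted p = 0.00393) and Synm (-0.87, adjusted p = 0.0249) were called, and Synm was also called after median-of-ratios rescaling (-0.57, adjusted p = 0.0471). All 6 ependymal, 7 of 8 proliferation and 2 of 8 neuronal markers were lower at 6m, and the part of the ependymal and proliferation lists was not tested. The number of genes called, 1360, was 877 without 3m replicate 4, 574 without 3m replicate 5 and 699 without 6m replicate 1.

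In aging, from 3m to 18m, Gfap and Synm fell, and Vim and Nes did not pass the test. Gfap had 582, 370, 447 and 257 TPM at 18m, against 686, 432, 899, 685 and 991 TPM at 3m. The 18m libraries reached into the 3m range at its low end, and Gfap was 1.78-fold lower, a log2 fold change of -0.84 ± 0.31 (SE; limma adjusted p = 0.0325). Synm had 3.88, 4.47, 3.77 and 5.14 TPM at 18m, against 6.75, 6.82, 4.84, 12.0 and 7.66 TPM at 3m. Only 18m replicate 4 lay above the lowest 3m library, and Synm was 1.77-fold lower, a log2 fold change of -0.66 ± 0.23 (SE; limma adjusted p = 0.0268).

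Vim had 150, 194, 250 and 179 TPM at 18m, against 176, 110, 143, 273 and 178 TPM at 3m, and the ages overlapped widely. Its log2 fold change was 0.17, with a 95% interval from -0.32 to 0.66 (limma adjusted p = 0.595). Nes had 4.6, 5.68, 6.00 and 4.84 TPM at 18m, against 6.52, 5.88, 6.17, 9.03 and 6.07 TPM at 3m. Its log2 fold change was -0.29, with an interval from -0.75 to 0.17 (adjusted p = 0.316), and its sign differed after quantile normalization (0.088) and with the covariate for genes at 0 (0.11). Gfap made up 66.0% of the 4 genes' summed TPM at 18m and 79.1% ± 6.05 (SD, n = 5) at 3m.

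Of all genes tested, 37.5% were called between 18m and 3m, 33.4% as lower and 4.16% as higher, and 29.2% did not overlap, so 2 lower calls of 4 lie close to the background. The median of all genes was -0.24 on the log2 scale and 11.1% of calls were higher. After median-of-ratios rescaling the median was -0.024 and the higher share 48.1%, and neither filament gene was called (Gfap -0.59, limma adjusted p = 0.134; Synm -0.44, adjusted p = 0.0850). The 18m libraries lie in the range with the most genes at 0 (4109 to 4654 of them) and the 3m libraries in the range with the fewest. With that number as a covariate Gfap was 0.75, the opposite sign, and Synm -0.15, and neither was called. The slope of this covariate, too, comes from differences within ages, widest at 12m because of replicate 3, so age and range stay unseparated. The call of Gfap was lost without 3m replicate 3 (-0.75) or 5 (-0.72) or 18m replicate 2 (-0.81) or 4 (-0.63), and that of Synm without 3m replicate 4 (-0.49) or 18m replicate 1 (-0.62) or 3 (-0.61). Without 18m replicate 1 the number of genes called was 3471, against 5476 with all libraries. All 8 proliferation markers (median -1.88) and 3 of 6 fibroblast markers (median -0.58) were lower at 18m and none was higher, and the part of these 2 lists was not tested. Of 8 neuronal markers, 6 were lower at 18m, with sums of 48.0 to 134 TPM at 18m and 121 to 529 TPM at 3m. With neuronal and oligodendrocyte covariates Gfap was -0.79 (adjusted p = 0.0750) and Synm stayed called (-0.96, adjusted p = 0.0203), and Nes was called (-0.96, adjusted p = 0.00706), with Vim at -0.41. With endothelial and mural covariates Gfap (-1.04) and Synm (-0.90) remained called and so was Nes (-0.37, adjusted p = 0.0366), with Vim at -0.051.

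The oldest libraries can be set against P7 within 1 range of genes at 0. Gfap fell, with 582, 370, 447 and 257 TPM at 18m, against 700, 929, 969 and 752 TPM at P7. No libraries overlapped, and it was 2.02-fold lower at 18m, a log2 fold change of -1.06 ± 0.32 (SE; limma adjusted p = 0.0157). Nes also did not overlap between these ages, although its test missed the threshold (-0.58 ± 0.24 SE, adjusted p = 0.0644). Vim was -0.48 (adjusted p = 0.141) with overlap, and Synm 0.0042 with a 95% interval from -0.49 to 0.50 (adjusted p = 0.998). Of all genes, 29.6% were called, 24.9% as lower and 4.67% as higher, and 34.3% did not overlap. The higher share of calls was 15.8%, and 54.3% after rescaling, where the median of all genes moved from -0.20 to 0.026. Gfap was then -0.80 (adjusted p = 0.0818), and without 18m replicate 4 it was -0.85 (adjusted p = 0.0598). All 8 proliferation markers and 4 of 6 fibroblast markers were lower at 18m, and none of either list was higher. The part of these 2 lists in the Gfap result was not tested. Of 8 neuronal markers 1 was higher at 18m, as were 2 of 8 oligodendrocyte markers. With neuronal and oligodendrocyte covariates the call of Gfap was lost.

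No filament gene was called between 18m and P60, where 13.8% of all genes were called. Vim and Nes lay higher in every 18m library than in every P60 library, as 1 age did over the other for 25% of all genes. Vim was 0.52 (limma adjusted p = 0.206) and Nes 0.58 (adjusted p = 0.131). Gfap was 0.48 (adjusted p = 0.389) and Synm -0.26 (adjusted p = 0.555), both with overlap. After median-of-ratios rescaling Nes was called (0.66, adjusted p = 0.0434). These ages cross ranges of genes at 0, and with that number as a covariate Gfap was called (1.2, adjusted p = 0.0346). That covariate's slope again comes from differences within ages, widest at 12m because of replicate 3. With neuronal and oligodendrocyte covariates Vim (-0.13) and Nes (-0.057) had the opposite sign and were not called, and 6 of 8 neuronal markers were lower at 18m. Leaving out P60 replicate 1, 2 or 3, or 18m replicate 1, moved the genes called from 2010 to 927, 1060, 1216 and 1056.

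P21, P28 and 12m were described without a test. The share of all genes that did not overlap was not counted for pairs with these ages. Gfap had 453, 487 and 381 TPM at P21, 297, 337 and 492 TPM at P28 and 333, 292 and 954 TPM at 12m. At P21 every library lay below those of P14, and the 2 lower 12m libraries lay below most of those of 6m. Vim had 97.8, 114 and 113 TPM at P21, 103, 116 and 131 TPM at P28 and 137, 108 and 237 TPM at 12m. Its P21 libraries were the tightest of any age in range, all under the lowest P14 library (129 TPM).

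Nes had 4.88, 5.45 and 5.31 TPM at P21, 4.81, 5.69 and 6.88 TPM at P28 and 8.63, 6.86 and 11.4 TPM at 12m. The P28 libraries all lay above the highest P60 library (3.59 TPM), a separation whose share among all genes was not counted. The library 12m replicate 3 held the highest Nes value of the 34 libraries. Synm had 7.88, 5.26 and 11.4 TPM at P21, 4.23, 6.50 and 7.46 TPM at P28 and 7.93, 6.11 and 10.1 TPM at 12m. Its levels spread widely within an age, by 2.17-fold between the P21 libraries and 2.34-fold between the P14 libraries. At 12m, replicate 3, the 1 library of that age in the range of fewest genes at 0, was the highest for all 4 genes.

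The ratio of Gfap to Vim does not depend on how a library is scaled. It averaged 3.19 ± 0.711 (SD, n = 4) at P7, 4.52 ± 0.768 (n = 4) at P14 and 4.10 ± 0.644 (n = 3) at P21. From there it was 3.18 ± 0.491 (SD, n = 3) at P28, 2.19 ± 0.396 (n = 3) at P60 and 4.43 ± 1.49 (n = 5) at 3m. It was 4.58 ± 2.32 (SD, n = 5) at 6m, 3.06 ± 0.846 (n = 3) at 12m and 2.25 ± 1.10 (n = 4) at 18m. The P60 libraries lay between 1.73 and 2.42, below all P7 libraries (2.60 to 4.04), and the 18m libraries, at 1.44 to 3.88, overlapped the 3m libraries, at 2.51 to 6.27.

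**Figure D3:**
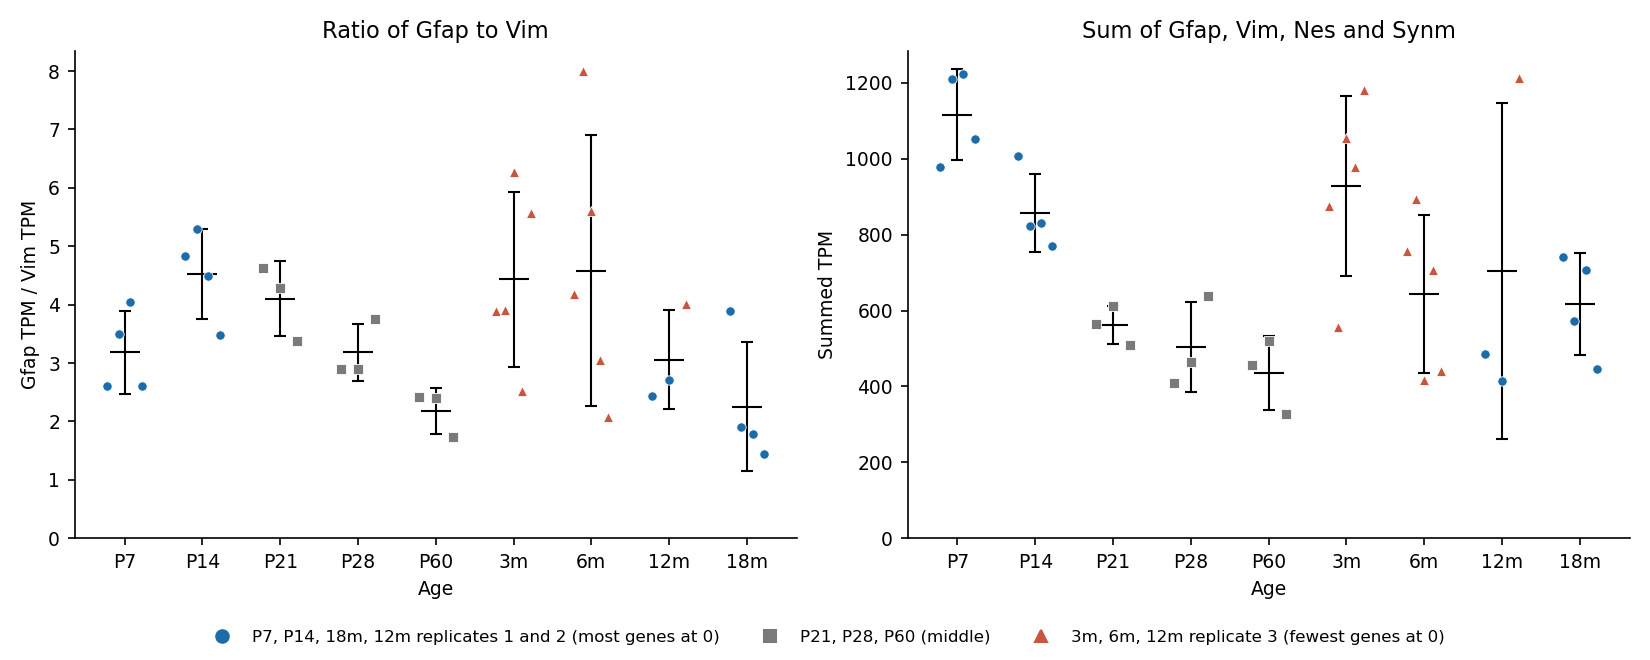
Ratio of Gfap to Vim TPM (left) and summed TPM of the 4 genes (right) in each library by age, with mean and SD and the range of genes at 0 as shape and colour. The ratio averaged 2.25 at 18m and 2.19 at P60, and the sum averaged 434 TPM at P60 and 1116 TPM at P7.

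Across the 34 libraries the 4 genes moved together only in part. Pearson's r of log2(TPM + 1), given as a description over libraries that share ages and ranges of genes at 0, was 0.64 for Vim and Nes, 0.52 for Gfap and Vim, 0.46 for Nes and Synm and 0.44 for Gfap and Nes. It was 0.05 for Gfap and Synm and 0.04 for Vim and Synm. The library labelled 3m replicate 4 was the highest of its age for Vim, Nes and Synm, and 6m replicate 4 was so at 6m.

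The genes most like each member were taken among 10256 tested genes that averaged 5 TPM or more. Closest to Gfap were Fxyd6 (r = 0.91), a small regulator of the sodium pump, Col1a1 (0.82) and Col3a1 (0.80), which encode fibrillar collagens, A2m (0.80), a protease inhibitor, and Eepd1 (0.80). Closest to Vim were Fbxw9 (r = 0.94), Haus4 (0.92), a subunit of the augmin complex of the spindle, Pafah1b3 (0.90), Fam3a (0.90) and Maged1 (0.90). Nes was closest to Msn (r = 0.94), which encodes moesin, a linker of actin to the membrane, Clic4 (0.93), Tmem123 (0.90), Ets1 (0.90), a transcription factor of endothelial and immune cells, and Mcl1 (0.90), a survival factor. The likest genes to Synm followed it less closely: Sorbs2 (r = 0.79), Fam13a (0.78), Ift172 (0.78) and Map3k20 (0.76). The collagens are also on the list of fibroblast markers, of which 5 of 6 were lower at P60 than at P7 and 3 of 6 were higher at 3m than at P60. Of the same 6, 3 were lower at 18m than at 3m and 4 were lower at 18m than at P7, with none higher.

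**Figure D4:**
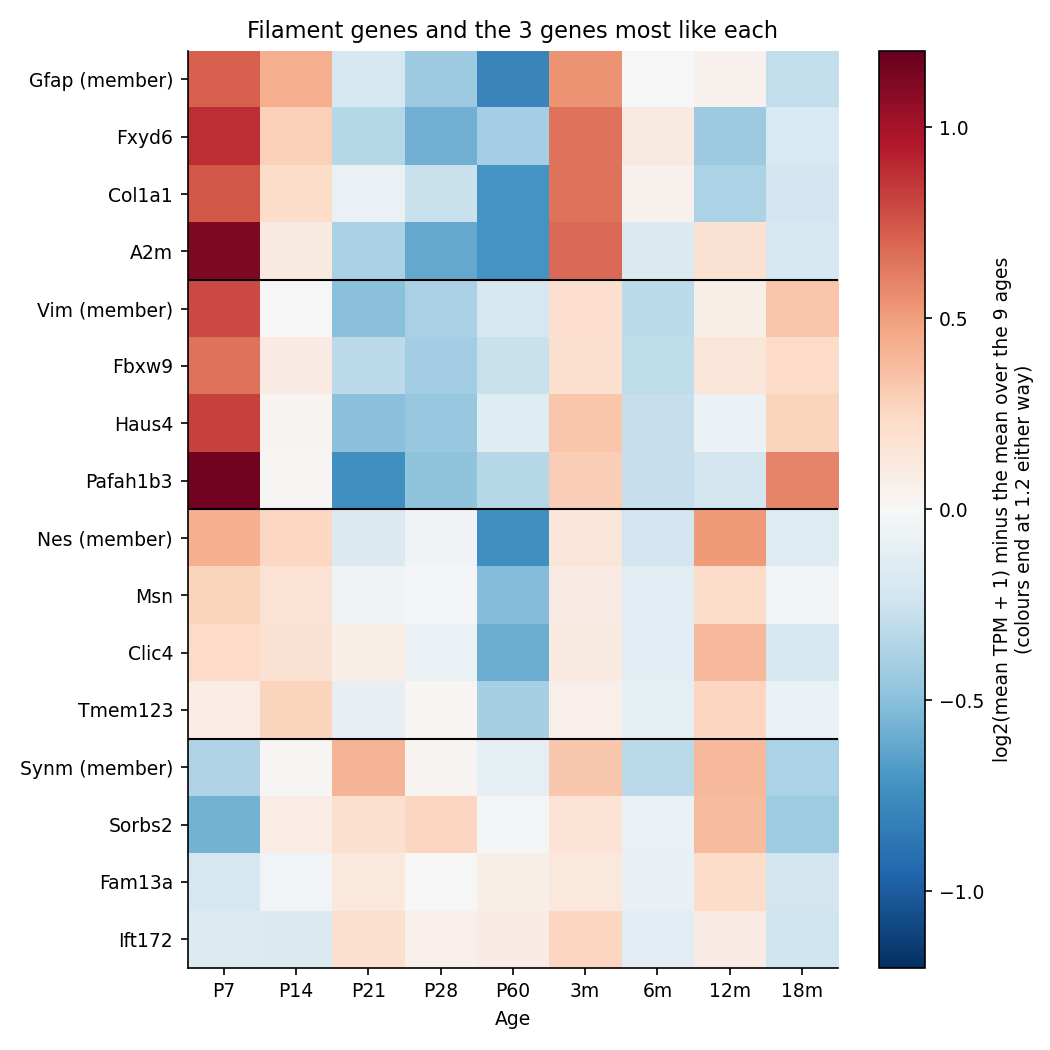
Mean level at each age of the 4 genes and the 3 genes most like each, as log2(mean TPM + 1) minus the gene's mean over the 9 ages (red higher, blue lower). The rows of Gfap and Fxyd6 (r = 0.91) are high at P7 and 3m and low at P60, and Synm differs from the other members in being high at P21.

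Nes is also made by vessel cells, so the endothelial list was read beside it. In the 6m libraries, replicates 1 to 5, the 8 endothelial genes summed to 1111, 227, 737, 1957 and 2644 TPM, and Nes stood at 4.53, 2.07, 3.09, 8.92 and 6.26 TPM. The libraries with the lowest and second lowest sums were also lowest and second lowest for Nes. At P14 the sums were 2121, 856, 1491 and 2869 TPM and Nes 9.06, 4.72, 5.67 and 9.81 TPM, in the same order. Within 18m the order differed: replicate 1 had the highest sum, 2207 TPM, and the lowest Nes, 4.6 TPM. The sums weight abundant genes most, and Ly6c1, the most abundant of the 8 at P60, averaged 642 ± 164 TPM (SD, n = 3) at P60 and 303 ± 74.4 TPM (SD, n = 4) at P7. Between P60 and P7, where Nes fell by 1.16 on the log2 scale, the sums overlapped, but 5 of the 8 endothelial genes were lower at P60, and their part in the Nes result beyond the covariate fit was not tested. Cldn5, a tight junction protein, averaged 113 ± 61.2 TPM (SD, n = 3) at P60 and 367 ± 75.3 TPM (SD, n = 4) at P7. Kdr, a receptor for vascular endothelial growth factor, averaged 3.64 ± 0.968 TPM (SD, n = 3) at P60 and 18.0 ± 2.96 TPM (SD, n = 4) at P7.

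**Figure D5:**
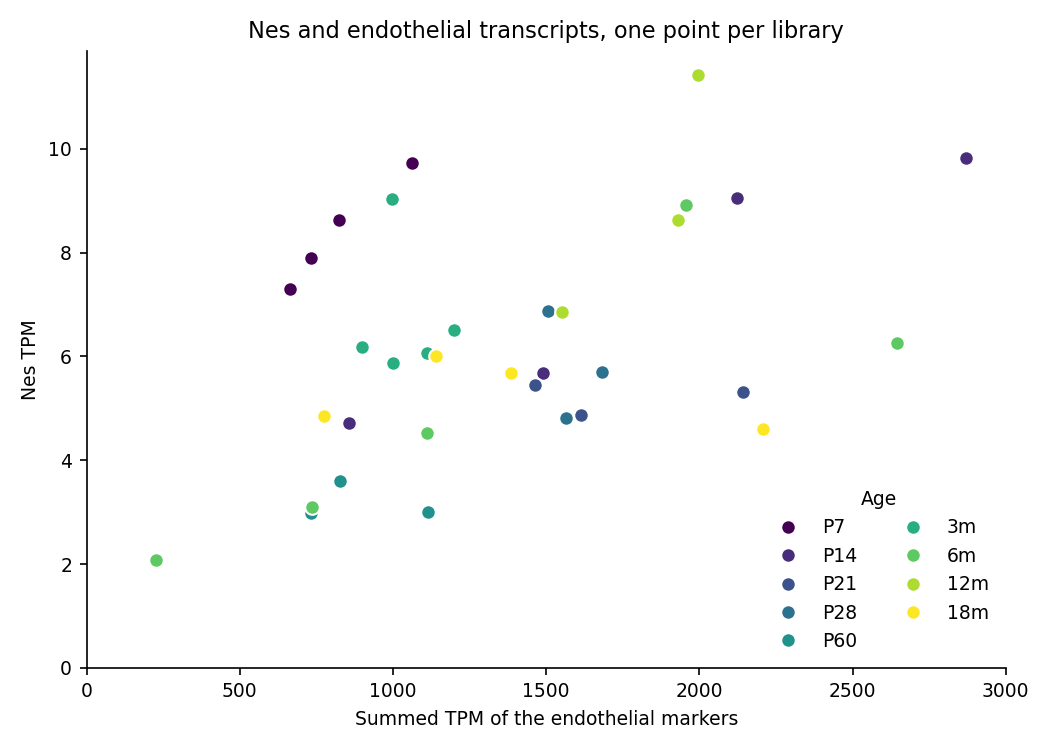
Nes TPM against the summed TPM of 8 endothelial markers, 1 point per library, coloured by age. P60 and P7 share a range of sums (663 to 1115 TPM), with Nes at 2.97 to 3.59 TPM at P60 and 7.29 to 9.72 TPM at P7, but Ly6c1 makes up most of the sum at P60, and 5 of the 8 markers were lower at P60.

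Other genes of the filament system were taken from 7 lists. Their counts stand beside 33.3% of all genes called lower and 19.5% called higher at P60 against P7, and 33.4% called lower and 4.16% called higher at 18m against 3m. Of 16 other intermediate filament genes, 15 were tested (all but Prph), and 7 were higher and 4 lower at P60 than at P7, with a median log2 fold change of 0.22 beside -0.15 for all genes. The neuronal filament genes Nefl (52.2 ± 23.7 TPM at P60 and 1.15 ± 0.319 TPM at P7) and Nefm (2.30 ± 0.525 TPM and 0.282 ± 0.134 TPM; SD, n = 3 and 4) were among the higher ones, and Nefl is also a marker on the neuronal list. Lmnb1, which encodes lamin B1 of the nuclear lamina, was 2.95-fold lower at P60. Between 18m and 3m, 1 of the 15 was higher and 6 lower, Lmnb1, Nefm and Ina having the smallest p, with a median of -0.31 beside -0.24 for all genes. After median-of-ratios rescaling 1 was lower at P60, and 3 were higher at 18m.

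Linkers and membrane anchors, which tie filaments to junctions and the dystroglycan complex, had 5 higher and 3 lower of 12 tested at P60 against P7 (median 0.17), and 6 lower and none higher at 18m against 3m (median -0.42), where rescaling left 2 lower. Dag1, which encodes dystroglycan, was lower in both comparisons (log2 fold change -0.79 at P60 and -0.77 at 18m; limma adjusted p = 0.000887 and 0.000551), as was Tln1, which encodes talin (-0.65 and -0.50). Chaperones and turnover factors split evenly between P60 and P7, with 4 higher and 4 lower of 12 (median 0.17). Cryab, which encodes the small heat shock protein αB-crystallin that binds GFAP filaments, was higher (472 ± 64.4 TPM, n = 3, against 278 ± 32.6 TPM, n = 4; SD). At 18m, 3 of 12 were lower than at 3m (median -0.20; after rescaling 1 was lower and 1 higher), among them Capn2, which encodes a subunit of the protease calpain (-0.46, limma adjusted p = 0.00610).

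Of 10 kinases that act on filaments, 7 were lower and 1 higher at P60 than at P7 (median -0.32; 4 and 2 after rescaling), and 9 were lower at 18m than at 3m (median -0.61). The mitotic kinases Aurkb, Cdk1 and Plk1, which phosphorylate vimentin or GFAP in dividing cells, led in both: Cdk1 averaged 5.21 ± 0.826 TPM (SD, n = 3) at P60 and 33.6 ± 4.39 TPM (SD, n = 4) at P7, and 5.76 ± 3.00 TPM (SD, n = 4) at 18m and 29.6 ± 12.2 TPM (SD, n = 5) at 3m. Aurkb and Cdk1 are also on the proliferation list, all 8 genes of which were lower at P60 than at P7 and at 18m than at 3m.

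Signals and factors that act on Gfap transcription had 11 lower and none higher of 20 at P60 against P7, also after rescaling, with a median of -0.44 beside -0.15 for all genes. Bmpr1a, a receptor for bone morphogenetic proteins (-0.82), Smad4, their shared effector (-1.08), and Dnmt1, the maintenance DNA methyltransferase (-0.80), had the smallest p. At 18m against 3m, 13 of 20 were lower and 1, Hes1, a Notch target, was higher (median -0.43 beside -0.24 for all genes). Nfix, a nuclear factor I protein, averaged 35.3 ± 5.02 TPM (SD, n = 4) at 18m and 81.7 ± 13.0 TPM (SD, n = 5) at 3m. Rescaling left 7 of these 20 lower and 3 higher.

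Radial glia and progenitor genes, the cells in which nestin is best known, had 7 lower and 2 higher of 11 at P60 against P7 (median -0.73) and 6 lower at 18m against 3m (median -0.54; 3 lower and 1 higher after rescaling). Tnc, the matrix protein tenascin C, averaged 3.76 ± 0.273 TPM (SD, n = 3) at P60 and 34.5 ± 3.63 TPM (SD, n = 4) at P7, and 3.12 ± 1.74 TPM (SD, n = 4) at 18m and 25.7 ± 5.0 TPM (SD, n = 5) at 3m. Ccnd2, which encodes cyclin D2, and Sox11, a transcription factor of immature neural cells, were also lower in both comparisons.

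Of 12 genes on a list for reactive astrocytes, 4 were lower and none higher at P60 against P7 (median -0.47), whereas rescaling gave 2 in each direction. At 18m against 3m, 2 were lower and none higher (median 0.16), and 1 was lower after rescaling. Cd44, a hyaluronan receptor, averaged 5.41 ± 0.572 TPM (SD, n = 3) at P60 and 13.0 ± 0.574 TPM (SD, n = 4) at P7, and 5.13 ± 1.89 TPM (SD, n = 4) at 18m and 11.1 ± 1.31 TPM (SD, n = 5) at 3m. Timp1, a metalloproteinase inhibitor, was lower at P60 than at P7 (-1.95), and Cd109 was lower at 18m than at 3m (-0.73).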

How the data were processed

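The deposited values are TPM per gene and library, made by the authors. Per the submitters' processing notes, the build was mm10 and the tools DESeq2 1.36.0, RSEM 1.2.28, STAR 2.7.1a and Trim Galore 0.6.4; the role of each is not given in the sources used here. Per the labels' protocols, RNA was reverse transcribed with SMART-Seq v4, a template-switching method for little RNA, enriched for polyA RNA and sequenced on a NovaSeq. TPM hold no read counts: depth is unknown, and counting intervals are not given.

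Values were analysed as log2(TPM + 1). Fold changes on this scale understate changes of low genes such as Nes and Synm, and folds given with TPM are ratios of mean TPM. Genes had to reach 1 TPM in 3 libraries or more, which left 14590. They were fitted in limma 3.58.1 (R 4.3.3, statmod 1.5.0) with 1 mean per age over all 34 libraries and robust, trended empirical Bayes. Calls needed a Benjamini-Hochberg adjusted p, over these genes, below 0.05. The words "rose", "fell", "higher" and "lower" of genes in a list refer to called genes. The fit was tested on simulated data.

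Members, lists and comparisons were chosen with earlier results of these data known. The named genes were the 4 members, the 5 genes of highest Pearson r with each, and up to 3 called genes of smallest p per list in P60 vs P7 and 18m vs 3m. Hes1 was named after its values were seen. Of the genes the rule names, 2 are not reported here. Alternatives covered scaling (median of ratios, quantile), covariates (genes at 0, cell markers), a replicate block, array weights, the pseudocount (0.1), the filter (none, or 5 TPM), fits to the compared ages alone and each library left out in turn. A fit without 3m, 6m and 12m replicate 3 was added after seeing the data. No 2 libraries were identical (highest r within an age 0.994). Figures were drawn with matplotlib 3.10.9 in Python 3.11.15.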

Additional observations from a re-analysis of the deposited data

Results flagged for a closer look

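In 2 cases a value stood apart from the other libraries of its age by the gap to the nearest library. Nes in 3m replicate 4 was 9.03 TPM, and the other 3m libraries lay between 5.88 and 6.52 TPM. Synm in 6m replicate 4 was 7.11 TPM, and the other 6m libraries lay between 3.51 and 4.33 TPM. These are 2 of 20 groups of libraries screened, and chance marks about 1 group in 20. The 20 groups do not cover all 4 genes at all 9 ages. The libraries 3m replicate 4 and 6m replicate 4 were also the highest of their age for Vim.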

How the results depend on the processing

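Libraries of different ages that carry the same replicate number did not deviate together (119 pairs, mean correlation 0.0023, lowest -0.44), so the replicate block is an alternative only. It brought Synm in 6m vs 3m (-0.63) and Nes in 18m vs P7 (-0.58) past the threshold and changed no other call of the 4 genes. A pseudocount of 0.1 and a filter of 5 TPM changed no call of theirs. Values below are log2 fold changes; where a result moved, the cause was not tested.

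Vim in P14 vs P7 was lost with no filter (-0.79), median-of-ratios rescaling (-0.66), quantile normalization (-0.70) and neuronal and oligodendrocyte covariates (-0.35). Rescaling lost Gfap (-0.59) and Synm (-0.44) in 18m vs 3m and Gfap in 18m vs P7 (-0.80), and brought in Synm in 6m vs 3m (-0.57) and Nes in 18m vs P60 (0.66). Quantile normalization lost Synm in 18m vs 3m (-0.30), turned Nes there (0.088), brought in Nes in 18m vs P60 (0.85) and called 2739 genes in 18m vs P7, against 4316. Array weights, whose estimate stopped before its tolerance, lost Synm in 18m vs 3m (-0.47) and brought in Nes in 18m vs P60 (0.57) and Vim (-0.45) and Nes (-0.56) in 18m vs P7. They called 6008 genes in P14 vs P7 (1728 in the model as reported), 3206 in 3m vs P60 (1487), 566 in 6m vs 3m (1360), 3106 in 18m vs P60 (2010) and 6739 in 18m vs P7 (4316).

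The covariate for genes at 0 turned Synm in P60 vs P7 (-0.027), Vim in 3m vs P60 (-0.15), Gfap (0.75) and Nes (0.11) in 18m vs 3m and Synm in 18m vs P7 (-0.054), as well as Cd109 in 18m vs 3m (0.12). It lost Gfap (0.45) and Nes (0.65) in 3m vs P60 and Synm in 18m vs 3m (-0.15), and brought in Gfap in 18m vs P60 (1.2) and Nes in 18m vs P7 (-0.63). It called 496 genes in 3m vs P60, 297 in 18m vs 3m and 1027 in 18m vs P60. Its slope comes from differences within ages, which were widest at 12m (1615 genes at 0 in replicate 3, 4556 and 4532 in replicates 1 and 2).

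Neuronal and oligodendrocyte covariates lost Gfap (-0.80), Vim (-0.028) and Nes (-0.28) in P60 vs P7, Gfap in 18m vs 3m (-0.79) and 18m vs P7 (-0.64) and the F test of Gfap (adjusted p = 0.0615). They turned Nes in P14 vs P7 (0.22), Vim in 18m vs 3m (-0.41), Vim (-0.13) and Nes (-0.057) in 18m vs P60 and Nefl in P60 vs P7 (-0.42), a gene on the neuronal list. They brought in Vim (-0.99), Nes (-0.96) and Synm (-0.87) in 6m vs 3m and Nes in 18m vs 3m (-0.96), with 3409 genes called in P60 vs P7 and 969 in 18m vs P60. Endothelial and mural covariates turned Synm in P60 vs P7 (-0.030) and 18m vs P7 (-0.24) and Vim in 18m vs 3m (-0.051). They brought in Nes in 18m vs 3m (-0.37) and Vim (-0.70) and Nes (-0.68) in 18m vs P7, with 1300 genes called in 18m vs P60. Each age has its own mean in both of these marker fits, so their slopes also come from differences within ages.

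Fitting only the ages compared brought in Vim (-0.48) and Nes (-0.58) in 18m vs P7 and called 4914 genes in P14 vs P7, 7 in 6m vs 3m and 1151 in 18m vs P60. Without 3m, 6m and 12m replicate 3 in the fit, chosen after seeing the data, Vim (0.52) and Nes (0.58) in 18m vs P60 and Vim (-0.48) and Nes (-0.58) in 18m vs P7 were called, with 3533 genes in P14 vs P7 and 3284 in 18m vs P60.

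Leaving out 1 library at a time gave ranges of -0.84 to -0.71 for Vim in P14 vs P7, 1.07 to 1.49 for Gfap and 0.78 to 0.94 for Nes in 3m vs P60, and -0.69 to -0.27 for Nes and -0.77 to -0.46 for Synm in 6m vs 3m. They were -1.02 to -0.63 for Gfap and -0.78 to -0.49 for Synm in 18m vs 3m, and -1.25 to -0.85 for Gfap and -0.10 to 0.13 for Synm in 18m vs P7. Synm there was below 0 without P7 replicate 1 (-0.10) or 4 (-0.058) or 18m replicate 2 (-0.012) or 4 (-0.068). Genes called ranged from 628 to 1268 in P14 vs P7, 675 to 1272 in 3m vs P60, 574 to 1559 in 6m vs 3m, 3471 to 5599 in 18m vs 3m and 927 to 2020 in 18m vs P60. In P60 vs P7, Gfap, Vim and Nes kept their calls without any 1 library. Read depth is not in TPM, so its limit on Nes and Synm, the low genes, is unknown.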
